A study of Mus musculus with 2 samples.

Results

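Adrenomedullin (Adm), its receptor Calcrl and the receptor activity-modifying proteins Ramp1, Ramp2 and Ramp3 were examined in the mouse uterus at gestation day 2.5. The 5 genes were chosen by name, for their place in 1 receptor system, and all 5 were among the 14678 genes with a copy number. In brief, Ramp3 was 10.3-fold higher and Ramp1 6.42-fold lower in the VEGF-repressed uterus than in the VEGF-normal uterus, whereas Adm, Calcrl and Ramp2 differed by at most 1.27-fold. The RAMP that made up the most copies was therefore Ramp1 in one library and Ramp3 in the other.

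Adrenomedullin is a secreted peptide that acts on blood vessels, dilating them and keeping the endothelial barrier intact, and in mice a lowered supply of it in the mother impairs implantation and placentation. Its receptor is the G protein-coupled receptor encoded by Calcrl, which reaches the cell surface and binds peptide only when it is paired with a RAMP, a small protein that crosses the membrane once. The partner sets the ligand: Calcrl with RAMP1 is the receptor for calcitonin gene-related peptide (CGRP), and Calcrl with RAMP2 or RAMP3 is the receptor for adrenomedullin. These receptors signal mainly through Gs and cAMP.

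All mice were of the strain labelled VEGFtetO/tetO/beta-AKtg/wt. They carried tet operator sequences at both Vegfa alleles and a transgene in which the beta-actin promoter drives a tetracycline repressor fused to the Krab silencing domain, so both groups were double transgenic. Dox+ mice were fed doxycycline chow, which releases the repressor, and are labelled VEGF-normal. Dox- littermates had doxycycline removed some weeks after birth, further weeks before the uteri were taken, and are labelled VEGF-repression. Each group was 1 library made from 6 µg of RNA pooled from 3 uteri, so no spread between animals could be estimated, no test between the conditions was possible, and effects of doxycycline cannot be told apart from effects of VEGF. The transgene promoter is active in most cell types, so repression was not limited to any one of them. Intervals below are exact 95% intervals for counting error only: Poisson intervals for levels and Clopper-Pearson intervals for shares, ratios and fold changes.

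The Dox+ library held 5985925 clean tags and the Dox- library 5844313, and 74.1% and 72.2% of them were counted to a gene. Levels are given in TPM, the copies of a gene for every 1000000 clean tags. Genes were compared when they had at least 200 copies in both libraries combined, and were called when they also differed by at least 1.5-fold. Of 6547 genes compared, 15.2% were called higher and 14.7% lower in Dox-, and the median log2 ratio of Dox- over Dox+ was 0.03. At a fold change of at least 5, 0.642% of the genes were higher and 0.748% lower. Vegfa, the repressed gene, had 247 copies in Dox+ and 125 in Dox-, which is 1.93-fold lower (1.55 to 2.41). Calcrl, Ramp1, Ramp2 and Ramp3 passed the copy number filter, and Adm did not.

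Ramp3, the RAMP that also steers the internalised adrenomedullin receptor towards recycling, had 188 copies in Dox+ and 1893 in Dox-. In TPM, these were 31.4 (27.1 to 36.2) and 324 (309 to 339). The Dox- level was 10.3-fold higher (8.87 to 12.0), a log2 ratio of 3.37, and only 16 of the 6547 genes compared had a larger log2 ratio. Among genes with a copy in the library, Ramp3 stood at the 70.1 percentile in Dox+ and at the 97.8 percentile in Dox-. It moved from the middle ranks of the uterine transcripts to the top ones. The gene lies on chromosome 11 (6558524 to 6577478, plus strand, NCBIM37, the assembly also called mm9).

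Ramp1, the partner that makes Calcrl a CGRP receptor, went the other way, with 815 copies in Dox+ and 124 in Dox-. In TPM, these were 136 (127 to 146) and 21.2 (17.6 to 25.3). The Dox- level was 6.42-fold lower (5.31 to 7.82), a log2 ratio of -2.68, and 33 of the genes compared had a lower ratio. Ramp1 stood at the 93.6 percentile of detected genes in Dox+ and at the 59.5 percentile in Dox-. It lies on chromosome 1 (93076399 to 93121773, plus strand).

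Ramp2, the main vascular partner of Calcrl for adrenomedullin, had 611 copies in Dox+ and 480 in Dox-. In TPM, these were 102 (94.1 to 110) and 82.1 (74.9 to 89.8). The Dox- level was 1.24-fold lower (1.10 to 1.40), so the difference exceeded counting error but stayed under the fold change used for a call. Ramp2 stood at the 90.9 percentile of detected genes in Dox+ and at the 88.0 percentile in Dox-. The gene lies on chromosome 11 (101107342 to 101120860, plus strand). Its annotation overlaps an exon of the neighbouring gene Vps25 on the same strand, and Vps25 had 734 and 471 copies.

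Calcrl, the receptor itself, had 143 copies in Dox+ and 110 in Dox-, or 23.9 (20.1 to 28.1) and 18.8 (15.5 to 22.7) TPM. The Dox- level was 1.27-fold lower, and the interval of that ratio, 0.983 to 1.64, included 1. A difference in Calcrl was therefore not detectable at this depth. Calcrl lies on chromosome 2 (84170783 to 84265568, minus strand).

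Adm, the ligand, had 68 copies in Dox+ and 73 in Dox-, or 11.4 (8.82 to 14.4) and 12.5 (9.79 to 15.7) TPM. The Dox- level was 1.10-fold the Dox+ level, with an interval of 0.779 to 1.55, and no difference was detectable at this depth. It was the least abundant of the 5 genes by copies in both libraries and stood at the 44.7 and 46.1 percentiles of detected genes. Adm lies on chromosome 7 (117771175 to 117773331, plus strand).

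**Figure D1:**
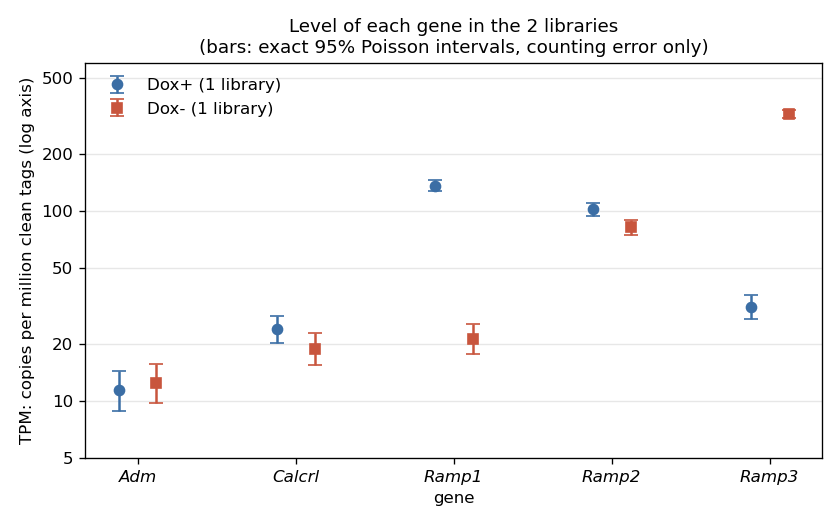
The level in TPM (vertical log axis) of Adm, Calcrl, Ramp1, Ramp2 and Ramp3 in the Dox+ library (circles) and the Dox- library (squares), with bars for exact 95% Poisson intervals. The intervals of the 2 libraries lie far apart for Ramp1 (136 and 21.2) and Ramp3 (31.4 and 324) and overlap for Adm and Calcrl.

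**Figure D2:**
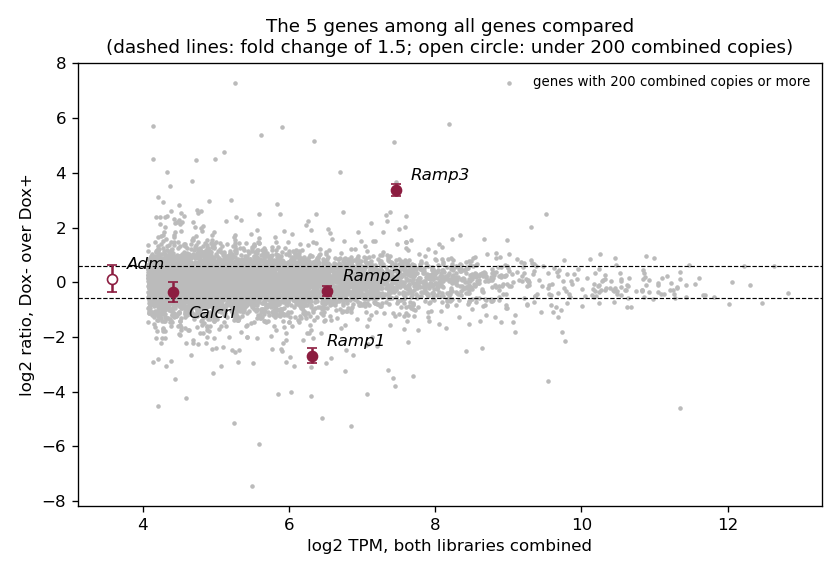
The log2 ratio of Dox- over Dox+ (vertical axis) against the log2 of the TPM over both libraries (horizontal axis) for the 6547 genes compared (grey) and the 5 genes (red, with counting intervals, Adm open because it had fewer than 200 copies). Ramp3 at 3.37 and Ramp1 at -2.68 lie away from most genes, whereas Calcrl, Ramp2 and Adm lie between the dashed lines for a fold change of 1.5.

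Of the 4 members compared, 1 was called higher and 1 lower, beside 15.2% and 14.7% of all genes compared. Both were also past a fold change of 5, beside 0.642% and 0.748% of all genes. No stretch of 17 bases of their transcripts was shared among the members, and 1.48% to 3.83% of such stretches occurred in another gene. An exon of Ramp3 overlaps Gm11978 on the opposite strand, which had 0 copies in Dox+ and 2 in Dox-.

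The promoters of Ramp3 and Ramp1 are shown because these are the 2 members that differed most, in opposite directions. The sequences are from RefSeq, cover 250 bases before the RefSeq start site (for Ramp3 without the last 12, which the gene annotation places in its first exon), and were placed on NCBIM37 by an exact match. Capitals mark the GC box, GGGCGG on either strand.
Ramp3, chr11:6558286-6558523, plus strand: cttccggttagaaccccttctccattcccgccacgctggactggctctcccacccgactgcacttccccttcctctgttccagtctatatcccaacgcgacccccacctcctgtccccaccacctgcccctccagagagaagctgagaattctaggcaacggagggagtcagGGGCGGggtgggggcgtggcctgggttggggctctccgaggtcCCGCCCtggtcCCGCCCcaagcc
Ramp1, chr1:93076149-93076398, plus strand: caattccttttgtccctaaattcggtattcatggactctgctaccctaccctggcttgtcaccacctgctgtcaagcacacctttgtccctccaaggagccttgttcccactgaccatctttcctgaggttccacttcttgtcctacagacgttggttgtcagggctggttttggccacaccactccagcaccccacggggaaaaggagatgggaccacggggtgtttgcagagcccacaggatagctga
The Ramp3 stretch held 3 GC boxes, none overlapping another, and 66.0% of its bases were G or C. The Ramp1 stretch held 0 GC boxes and 54% G or C, against a median of 52.4% over 32851 mouse promoters of 250 bases, of which 32.7% held at least 1 GC box. The RefSeq promoters of Adm and Calcrl held 1 GC box each, and 4 of the 5 genes, all but Ramp2, were matched to a promoter.

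Sequences of factors that are active in the uterus were searched on both strands of the same 4 promoters. The ACGTG form of the hypoxia response element core and the estrogen response element repeat unit AGGTCA had 0 matches in these windows. So did the repeat unit of progesterone and glucocorticoid response elements, TGTTCT, and the full estrogen response element. Over all promoters they were found in 16.6%, 14%, 16.1% and 0.0639%, respectively. A match of the full element can share bases with a match of the estrogen repeat unit. The GCGTG form of the hypoxia core, which the printed Ramp3 stretch holds, was not searched.

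The makeup of the RAMP copies was compared next, because a share within a library does not depend on its depth. In Dox+, the 1614 RAMP copies were 50.5% Ramp1 (48.0 to 53.0), 37.9% Ramp2 (35.5 to 40.3) and 11.6% Ramp3 (10.1 to 13.3). In Dox-, the 2497 RAMP copies were 4.97% Ramp1 (4.15 to 5.89), 19.2% Ramp2 (17.7 to 20.8) and 75.8% Ramp3 (74.1 to 77.5). By copies, the order of the family was thus reversed, with Ramp2 in the middle of both. Summed over the family, RAMP copies went from 270 to 427 TPM, 1.58-fold (1.49 to 1.69).

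**Figure D3:**
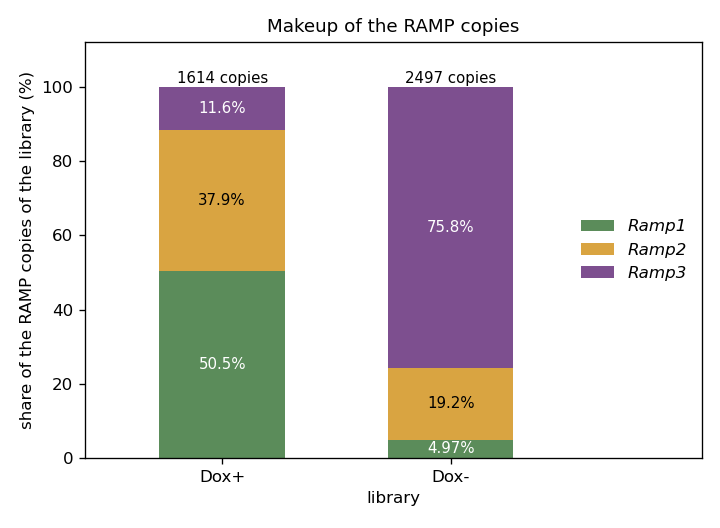
Stacked bars of the share of Ramp1, Ramp2 and Ramp3 in the RAMP copies of each library (vertical axis, percent), with the number of copies above each bar. Ramp1 goes from 50.5% in Dox+ to 4.97% in Dox-, and Ramp3 from 11.6% to 75.8%.

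Copies compare levels between genes only if each transcript gives the same number of tags. Tag profiling, which the study describes, counts tags without regard to length, but the labels also describe fragmented mRNA, so the levels were also divided by the length of the main annotated transcript. The lengths were 1387 bases for Adm, 4882 for Calcrl, 2549 for Ramp1, 1178 for Ramp2 and 1233 for Ramp3. In TPM per kilobase, the Dox+ order was Ramp2 (86.6), Ramp1 (53.4), Ramp3 (25.5), Adm (8.19) and Calcrl (4.89), and no intervals of neighbours overlapped. The Dox- order was Ramp3 (263), Ramp2 (69.7), Adm (9.01), Ramp1 (8.32) and Calcrl (3.86), in which Adm and Ramp1 were not separated by counting error.

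On this scale, Ramp1, Ramp2 and Ramp3 took 32.3%, 52.3% and 15.4% of the RAMP level in Dox+ and 2.44%, 20.5% and 77.1% in Dox-. With the shortest annotated Ramp1 transcript of 850 bases, chosen after the values were seen, the Dox+ shares were 58.8%, 31.8% and 9.35%. Ramp3 was thus the smallest share in Dox+ and the largest in Dox- on all 3 scales, while the order of Ramp1 and Ramp2 in Dox+ depended on the length used. By copies alone, Ramp3 and Calcrl in Dox+ had overlapping intervals, as did Ramp1 and Calcrl, and Calcrl and Adm, in Dox-.

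Ratios of copies to the receptor put the partners on the receptor's own scale. For each Calcrl copy there were 5.70 Ramp1 copies in Dox+ (4.77 to 6.86) and 1.13 in Dox- (0.865 to 1.47). Ramp3 copies for each Calcrl copy went from 1.31 (1.05 to 1.65) to 17.2 (14.2 to 21.1). Ramp2 copies for each Calcrl copy were 4.27 (3.56 to 5.16) and 4.36 (3.54 to 5.42), and these intervals overlapped. Of the 3 RAMP ratios to Calcrl, that of Ramp2 was therefore the one that counting error did not separate between the libraries, while the Ramp3 to Ramp1 ratio went from 0.231 (0.196 to 0.271) to 15.3 (12.7 to 18.5). Adm copies for each Calcrl copy were 0.476 (0.351 to 0.639) and 0.664 (0.487 to 0.900), again with overlapping intervals. These are ratios of transcripts in whole uterus, and the RAMPs also pair with other receptors.

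The genes with the most similar pair of levels were found by the distance between log2 TPM values in the 2 libraries, which is likeness over 2 libraries only. For Ramp3 the nearest was Angel1 (156 and 1933 copies, distance 0.27), the only gene within a distance of 0.5, then Rnf187 (291 and 1690) and Col6a4 (302 and 1605). For Ramp1 the nearest were Pcx, or pyruvate carboxylase (959 and 122 copies, distance 0.24), the stromal transcription factor Hand2 (985 and 143) and Galm (834 and 96), and 8 genes lay within 0.5. Few genes therefore had the levels of Ramp3 or Ramp1. Calcrl and Ramp2 had 947 and 453 genes within 0.5, with Ddx26b, Prkdc and 0610011L14Rik nearest to Calcrl and Jak1, Gabarapl1 and Dars nearest to Ramp2. Adm is below the copy number filter that its neighbours had to pass, and the nearest, Pxn, Iglon5 and Zbtb10, were at a distance of 0.71.

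The genes around the receptor were taken in 8 lists of 76 genes, of which 70 had a copy number and 35 were compared. Of these, 10 were called higher and 5 lower in Dox-, or 28.6% and 14.3%, beside 15.2% and 14.7% of all genes compared. The lists were chosen with earlier results of these data known, and the genes called lower include Vegfa, the repressed gene. The shares therefore describe these lists only. Lists under 5 compared genes are given by their counts only.

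Among the ligands and their processing enzymes, 2 of 3 compared genes were called higher and 0 lower. Pam, the enzyme that amidates the carboxyl end of adrenomedullin and of other peptides, had 82 copies in Dox+ and 289 in Dox-, 3.61-fold higher (2.82 to 4.67). Iapp, which encodes amylin, the ligand of RAMP-paired calcitonin receptors, had 362 and 583 copies, 1.65-fold higher (1.44 to 1.89). Thus the amidating enzyme was higher in Dox- while Adm itself was not detectably so.

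The other listed ligands of Calcrl that had a copy number, Adm2 and Calca, had too few copies for a call. They are named here after their values were seen. Calcb, a further CGRP gene, was in the list but had no copy number under the symbols searched, so its level is not known here. Adm2, or intermedin, had 0 copies in Dox+ and 29 in Dox-, 9.90-fold higher with the Dox+ library set to a floor of 3 copies. Calca, whose transcripts encode calcitonin or CGRP, had 37 copies in Dox+ and 0 in Dox-, 12.0-fold lower with the same floor. Counting error is not included in either fold. With 2 libraries, any gene that differs is higher in the same library as either Ramp1 or Ramp3. Whether these ligands and the RAMPs change together was not tested. Copies of Calca do not tell its calcitonin and CGRP forms apart.

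Of the receptors and scavengers, Cxcr7, which encodes the decoy receptor Ackr3 that binds adrenomedullin and the chemokine Cxcl12, was the 1 gene compared and was called higher. It had 129 copies in Dox+ and 316 in Dox-, 2.51-fold higher (2.04 to 3.10). Calcr, the calcitonin receptor, was in the list but had no copy number under the symbols searched, so its level is not known here. Of other receptors reported to pair with RAMPs, Pth1r, the parathyroid hormone receptor, was the 1 gene compared, and was called lower with 725 and 335 copies, 2.11-fold (1.85 to 2.41).

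Of the 3 compared genes for peptide binding and degradation, 1 was called in each direction. Mme, or neprilysin, a cell surface peptidase that cleaves adrenomedullin and CGRP, had 402 copies in Dox+ and 71 in Dox-, 5.53-fold lower (4.29 to 7.22). The insulin-degrading enzyme Ide, which also cleaves amylin, had 159 and 279 copies, 1.80-fold higher (1.47 to 2.20). Ece1, the endothelin-converting enzyme, had the most copies in the list, 875 and 624, and was not called. Mme and Ramp1 were both more than 5-fold lower.

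Desensitisation and recycling genes were called higher in 2 and lower in 0 of 5 compared, with a median log2 ratio of 0.51 beside 0.03 over all genes. The called genes were Adrbk1, the receptor kinase also named Grk2 (196 and 299 copies, 1.56-fold), and Nsf, which takes part in the recycling of the receptor with RAMP3 (90 and 133 copies, 1.51-fold). The related kinase Grk6 had 224 and 312 copies and stayed under the fold change used. Nsf was just past it, and its call depended on the library scaling. With TMM scaling or median-ratio size factors Nsf was not called, and the lists together had 9 genes called higher in place of 10. The other compared genes, named after their values were seen, were lower in Dox- and not called. Arrb1 had 125 and 91 copies, 1.34-fold lower (1.02 to 1.78). Slc9a3r1 had 283 and 246, 1.12-fold lower with an interval that included 1. The median rests on few genes, and their mean was 0.23.

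Of 9 cAMP signalling genes compared, 0 were called higher and 1 lower, with a median log2 ratio of 0.18. Gnas, the Gs alpha subunit and the most abundant, had 2291 and 2935 copies and was not called, and the adenylyl cyclase gene Adcy7 had 142 and 83 copies, 1.67-fold lower (1.27 to 2.22).

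Adm is a classic target of hypoxia, so hypoxia factors and their targets were listed too. Of 11 compared, 2 were called higher and 2 lower, with a median log2 ratio of 0.16. Egln3, an oxygen-sensing prolyl hydroxylase that is itself a hypoxia target, had 35 and 179 copies, 5.24-fold higher (3.63 to 7.76), and the glycolytic gene Pgk1 had 2711 and 4307, 1.63-fold higher (1.55 to 1.71). The called lower genes were Vegfa, given above, and Vhl, which marks hypoxia factors for degradation (157 and 91 copies, 1.68-fold). Adm did not differ detectably beside them.

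Steroid receptors, which set the state of the uterus at this stage, were called higher in both genes compared. Pgr, the progesterone receptor, had 687 and 1251 copies, 1.87-fold higher (1.70 to 2.05), and Esr1, the main estrogen receptor, had 165 and 262, 1.63-fold higher (1.33 to 1.99).

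**Figure D4:**
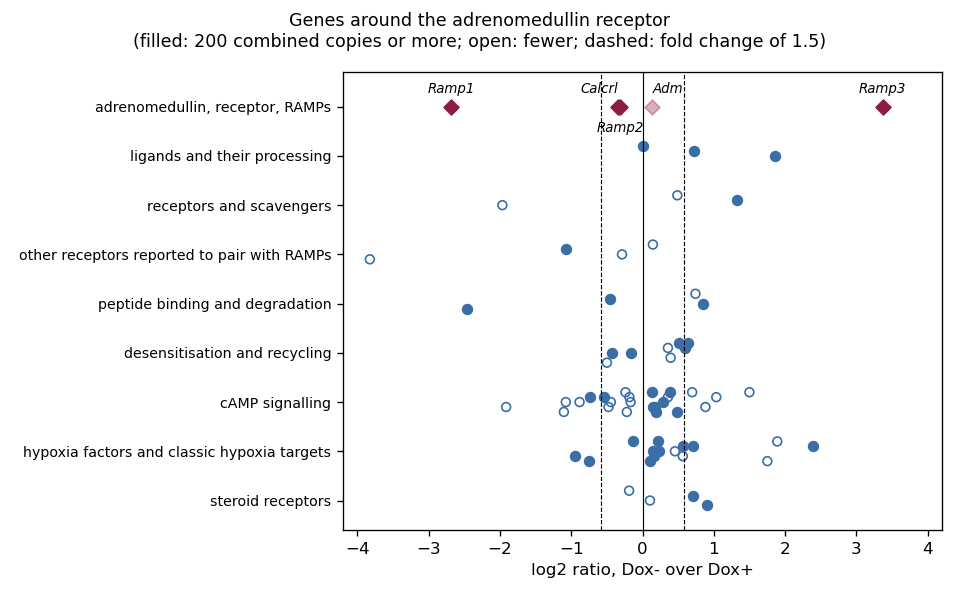
The log2 ratio of Dox- over Dox+ (horizontal axis) of each gene in the 8 lists (circles, 1 row a list, filled when the gene had at least 200 combined copies) below the 5 members (diamonds, Adm pale because it had fewer). Genes with 0 copies in a library, or at most 3 in both, are not drawn. Ramp3 at 3.37 and Ramp1 at -2.68 lie farther from 0 than any filled circle, of which Mme and Egln3 lie farthest out.

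Cell type markers moved between the libraries too, and in bulk uterus fewer cells of a type and less RNA per cell cannot be told apart. Markers of blood endothelium, in which Calcrl and Ramp2 are known to be abundant, were called lower in 4 of 6 compared and higher in 0, with a median log2 ratio of -0.78. Summed over 13 markers they went from 330 to 224 TPM. Cdh5, the endothelial cadherin, had 446 and 216 copies, and Egfl7, Tie1 and Cldn5 were the other genes called lower. Pecam1 (243 and 253 copies) and Vwf (177 and 148), named after their values were seen, were compared and not called. Of the 13 markers, 10 had a ratio below 1 and 3 above 1. Over the 4 lymphatic markers with a copy number the sum went from 24.4 to 15.1 TPM, 0 could be compared, and the defining factor Prox1, named after its values were seen, had 4 and 0 copies.

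Markers of vascular mural cells summed to 173 and 103 TPM over 6 genes, and 2 of 4 compared, Cspg4 and Kcnj8, were called lower. Smooth muscle markers summed to 6215 and 4333 TPM over 6 genes, with Des and Cnn1 called lower of 6 compared and a median log2 ratio of -0.54. The summed endothelial, mural and smooth muscle markers were thus all lower in Dox-.

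Markers of uterine epithelium were higher in sum, at 826 and 1154 TPM over 7 genes. Krt7 and Epcam were called higher of 6 compared, and the median log2 ratio was 0.42. Stromal markers split. Of 7 compared, Hoxa10, Hoxa11, Hand2 and Vim were called lower and 0 higher, with a median log2 ratio of -0.60. The summed level instead went from 5654 to 6683 TPM because Col1a1, with 23017 and 33696 copies, made up most of it. Vim, 1.52-fold lower (1.43 to 1.61), was just past the limit, and Col1a1, 1.499-fold higher (1.47 to 1.52), just short of it. With the summed copies as library total, Col1a1 was past the limit and Vim was not. Leukocyte markers summed to 60.6 and 91.9 TPM over 6 genes, with 0 of 1 compared called. The part that any of these cell types takes in the differences of Ramp1 and Ramp3 was not tested. Within a list the markers varied: the log2 ratios of the stromal markers went from -2.75 for Hand2 to 0.58 for Col1a1.

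**Figure D5:**
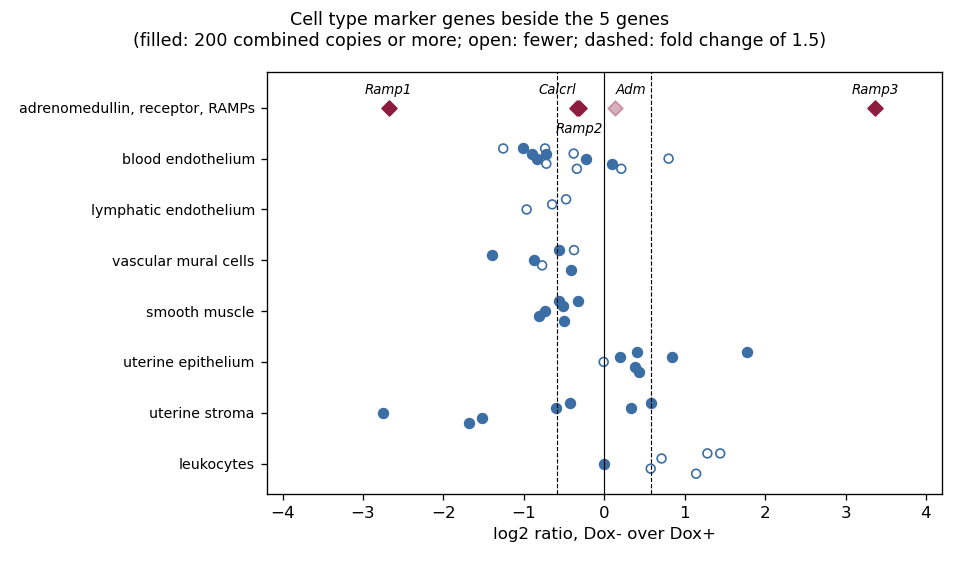
The log2 ratio of Dox- over Dox+ (horizontal axis) of cell type marker genes (circles, 1 row a list, filled when the gene had at least 200 combined copies) below the 5 members (diamonds). Genes with 0 copies in a library, or at most 3 in both, are not drawn. Ramp3 at 3.37 lies beyond every filled marker on the higher side, and Ramp1 at -2.68 is close to the lowest stromal marker, Hand2.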

How the data were processed

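Total RNA of 3 pooled uteri per condition was sequenced as 1 digital gene expression (tag profiling) library each. The authors kept clean tags, without adaptor sequence, poor quality or a copy number under 2, aligned tags to mouse reference transcripts of mm9 and deposited the copy number (count) of each gene, not normalized. They also deposited TPM, here copies for every 1000000 clean tags, with 0.01 written at 0 copies. The submitters' processing notes name CASAVA and mm9. The study told sense from antisense tags and analysed antisense tags apart, but whether the deposited counts hold sense tags only, the cutting enzyme and the aligner are not given in the sources used here. The table also holds the authors' log2 ratios, p-values and FDR of the comparison, which were not used.

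Library totals were the median of count over TPM among genes with at least 2000 copies. A fold change is the ratio of these TPM values, computed from the counts. Genes were compared at 200 combined copies and called at a fold change of 1.5, limits that the study gives in its results, but without its p-value and FDR criteria. The methods of the study state a lower fold limit. With 1 library per condition no p-value is given. The members and gene lists were chosen with earlier results of these data known. Named genes were the 5 members, in each list at most the 4 called genes with the most copies and the gene with the most copies, Vegfa, and the 3 genes nearest to each member. Other names are said to be chosen after their values were seen. Exceptions are Vps25 and Gm11978, which overlap members, and Calcr and Calcb, which had no copy number. Positions, overlaps and transcript lengths are from the NCBIM37 annotation, with the longest coding transcript in the consensus coding sequence set as the main one. Promoters are from the RefSeq table. Alternatives were other library totals (TMM in edgeR 4.0.16 and median-ratio size factors in DESeq2 1.42.0), other filters and folds, an Audic-Claverie test, edgeR's exact test with an assumed coefficient of variation of 0.2 or 0.4, a pseudocount of 1 and lengths. The calculations were made in Python 3.11.15 with scipy 1.17.1 and R 4.3.3, and were tested on simulated data.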

Additional observations from a re-analysis of the deposited data

How the results depend on the processing

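The log2 ratios of the 5 members changed by at most 0.04 under other library totals, TMM scaling, median-ratio size factors or a pseudocount of 1 copy, and all 20 such values kept within the main counting interval. Ramp3 stayed called higher under every alternative run, and Ramp1 lower under all but 1. That was edgeR's exact test with an assumed coefficient of variation of 0.4 between libraries, which called 0 members lower. The genes past a fold change of 1.5 were 2385 higher and 2256 lower with at least 20 combined copies and 2869 and 2830 with no filter, and the pathway lists then had 16 genes called higher and 10 lower at 20 combined copies. Per kilobase of transcript, Ramp1, Ramp2 and Ramp3 took 32.3%, 52.3% and 15.4% of the RAMP level in Dox+ and 2.44%, 20.5% and 77.1% in Dox-. With the shortest Ramp1 transcript, added after seeing the data, the shares were 58.8%, 31.8% and 9.35% in Dox+ and 6.98%, 19.5% and 73.5% in Dox-. No paired analysis was possible because each condition had 1 library, and for the same reason no replicate could be left out. Depth limits Adm most: with 141 combined copies, a difference of up to 1.55-fold higher in Dox- lies within its counting interval.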

Other observations

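Several genes of the lists lay under 200 combined copies but had a counting interval that excluded 1, and are named here after their values were seen. Vipr2, a receptor for vasoactive intestinal peptide that is reported to pair with RAMPs, had 58 copies in Dox+ and 4 in Dox-, 14.2-fold lower (5.24 to 53.7). Of the adenylyl cyclase genes, Adcy1 had 25 and 69 copies, 2.83-fold higher (1.77 to 4.66), whereas Adcy3 had 95 and 44, 2.11-fold lower (1.46 to 3.09). Rapgef4, the cAMP-activated exchange factor also named Epac2, had 27 and 7 copies, 3.77-fold lower (1.60 to 10.2). Among hypoxia targets, Ankrd37 had 21 and 76 copies, 3.71-fold higher (2.26 to 6.33), and Ddit4 had 14 and 46, 3.37-fold higher (1.82 to 6.63). The leukocyte marker Ptprc, or CD45, had 49 and 130 copies, 2.72-fold higher (1.94 to 3.86). Exons of Adcy3, Rapgef4 and Ankrd37 overlap a gene on the opposite strand, and whether the deposited counts hold sense tags only is not given in the sources used here.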
